A study of Mus musculus with 42 samples.

Results

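Complement and coagulation factors were followed as 39 listed genes, found by gene name, among the 54532 genes of the read count table. The list holds 19 complement genes and 20 genes of clotting, its inhibitors and clot removal. The libraries came from female C57BL/6NHsd mice that were 3 weeks old at the start and then ate AIN93G, a standard purified diet, or a diet rich in fat (HFD) for 3 weeks. Soybean oil gave 16% of energy on AIN93G and 45% on the HFD, in place of carbohydrate, so the diets differed in both fat and carbohydrate. Mice were kept under 12 h of light and 12 h of dark, were not fasted, and were killed every 4 h from Zeitgeber time (ZT, hours after lights on) 0 to ZT 24. There were 3 mice per diet and time point, or 42 libraries, with no genetic manipulation in any group. The label at ZT 12 was light phase for 1 and dark phase for 2 of the 3 libraries of each diet.

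All libraries are labelled liver, but 10 of the 42 held almost no hepatocyte RNA. Albumin (Alb), the most abundant hepatocyte secretory transcript, lay between 73322 and 130466 reads per 1e6 counts (CPM, with TMM scaling) in 32 libraries and between 11.3 and 65.7 CPM in the other 10. Adiponectin (Adipoq), made by adipocytes, was at most 5.60 CPM in the 32 and 853 to 2019 CPM in the 10. All 12 adipocyte markers were higher in each of the 10 than in any of the 32 (their sum was 14483 to 28670 against 821 to 2880 CPM), and 13 of the 14 hepatocyte markers other than Alb were lower in each of the 10. Alb chose these sets, so its level is a description. The 10 are called adipocyte-rich below and the 32 liver libraries. The 10 comprise the complete AIN93G groups of ZT 16 and of ZT 20 (6 libraries) together with replicates 1 and 2 of both diets at ZT 24. Diet and time were therefore compared in liver libraries first, at ZT 0 to ZT 12 on both diets and at ZT 0 to ZT 20 on the HFD. Total counts were 14592481 to 21368409 per library.

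Complement is a cascade of plasma proteins in which recognition molecules (C1q, mannose-binding lectins) switch on serine proteases that cleave C4, C2 and C3 and lead to a pore made of C5 to C9. Clotting is a parallel cascade in which factors made mainly by hepatocytes turn prothrombin into thrombin and fibrinogen into fibrin, held back by protein C, protein S and antithrombin and undone by plasmin. Hepatocytes release most of these proteins into blood, whereas C1q comes from macrophages and related cells. Fibrinogen and several complement proteins are acute-phase proteins, whose transcripts rise with interleukin-6.

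The stretches before the starts of 5 genes that are described together below are shown. The fibrinogen chains Fga, Fgb and Fgg lie together on chromosome 3, and F11 and Klkb1 are neighbours on chromosome 8, 4657 bases apart. Each run is the 250 bases before the RefSeq start in GRCm38.p6, written from 5′ to 3′ on the gene's strand. Capitals mark GTTAAT (the HNF1 half-site, read on both strands, so also ATTAAC) and CTGGGAA (the interleukin-6 type II element, read on both strands). In the read count table Fga starts at 83026076 and Klkb1 at 45294859, before the RefSeq starts. The last bases of these runs, with the ATTAAC of Fga, therefore lie inside the genes as counted.
Fga (chr3:83025903-83026152, plus strand): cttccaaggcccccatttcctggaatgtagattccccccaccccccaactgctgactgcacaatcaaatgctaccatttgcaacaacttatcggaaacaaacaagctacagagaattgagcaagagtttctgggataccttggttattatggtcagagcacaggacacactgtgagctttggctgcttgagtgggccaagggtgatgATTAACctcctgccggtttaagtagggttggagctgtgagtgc
Fgb (chr3:83049864-83050113, minus strand): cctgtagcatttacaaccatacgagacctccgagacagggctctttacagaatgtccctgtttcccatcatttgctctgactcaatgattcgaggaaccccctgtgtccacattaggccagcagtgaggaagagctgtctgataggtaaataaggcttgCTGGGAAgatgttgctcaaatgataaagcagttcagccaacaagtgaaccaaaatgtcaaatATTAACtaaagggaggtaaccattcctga
Fgg (chr3:83007474-83007723, plus strand): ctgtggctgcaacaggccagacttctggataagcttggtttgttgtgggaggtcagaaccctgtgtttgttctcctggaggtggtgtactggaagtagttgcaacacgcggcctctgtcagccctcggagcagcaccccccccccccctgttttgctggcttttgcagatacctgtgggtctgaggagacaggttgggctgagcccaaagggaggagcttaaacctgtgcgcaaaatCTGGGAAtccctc
F11 (chr8:45262032-45262281, minus strand): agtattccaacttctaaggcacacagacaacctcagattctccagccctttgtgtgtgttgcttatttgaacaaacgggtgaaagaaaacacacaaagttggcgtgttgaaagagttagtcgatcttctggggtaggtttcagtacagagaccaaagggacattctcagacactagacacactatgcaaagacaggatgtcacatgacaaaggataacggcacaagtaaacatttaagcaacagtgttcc
Klkb1 (chr8:45294836-45295085, minus strand): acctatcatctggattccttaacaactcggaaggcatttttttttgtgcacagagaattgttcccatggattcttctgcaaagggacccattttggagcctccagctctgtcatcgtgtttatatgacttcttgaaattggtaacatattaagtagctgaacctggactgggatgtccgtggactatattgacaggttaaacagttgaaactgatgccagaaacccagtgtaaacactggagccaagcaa
The 2 motifs do not overlap each other in these runs. GTTAAT was found before Fga and Fgb and CTGGGAA before Fgb and Fgg, and neither was found before F11 or Klkb1. Among all 32851 RefSeq promoters of this length, 6.43% held GTTAAT and 9.10% held CTGGGAA. Of the 29 listed genes with an entry, 6 held GTTAAT (C8a, C8b, F13b, Fga, Fgb and Hc) and 4 held CTGGGAA (F9, Fgb, Fgg and Masp2). The clock motif CACGTG, the E-box, was in 6.02% of all promoters and in 0 of the 29. TTANGTAA, the core of the D-box bound by PAR bZIP factors, was in 2.06% of all promoters and in F13b alone among the 29. TTNNGNAA, a motif of C/EBP factors that is not marked in the runs, was in 36.8% of all promoters. It was in 13 of the 29, among them Fga, Fgb, F11 and Klkb1. A match of letters is a description and not a bound site.

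In liver libraries, C3 and fibrinogen dominated the set. C3, the central complement protein, had a median of 9496 CPM with a range of 6927 to 12164 CPM over the 32 libraries, and held 20.2% of all counts of the 39 genes. Fgb, Fga and Fgg, the chains of the clot protein, had medians of 5515, 5108 and 4286 CPM. The fibrinogen chains with F13b, which carries the cross-linking factor XIII, held 32.5% of the counts.
Per kilobase of annotated exon, which allows a rough comparison of genes, Fgg stood first at a median of 2048 CPM per kilobase. C3 followed at 1846, Fga at 1697 and Fgb at 1448. Whether the transcripts in liver use the whole annotated length was not tested. Fgg and C3 lay closer together than the spread over libraries, whose coefficient of variation was 21.9% for Fgg and 12.4% for C3. Mbl2, a mannose-binding lectin, came next at 758 CPM per kilobase, and Kng1, the kininogen of the contact system, at 718. At the other end of the order were Cfb, the protease of the alternative pathway, at 6.72, C2, its classical counterpart, at 8.70, and C6, a pore component, at 8.91 CPM per kilobase.
Some of these levels may depend on reads that another gene shares. In GENCODE M21, 79.5% of the exonic bases of Cfb and 42.8% of those of C2 also belong to Gm20547, a gene that runs through both, and 54.9% of Masp2 overlaps Tardbp on the opposite strand. Gm20547 had no count in any library. For Klkb1, 43.2% is shared with Gm45753, whose highest count was 2. On the opposite strand, 34.4% of Serpinc1 overlaps Zbtb37, with up to 575 counts, and 11.3% of Plg overlaps Slc22a3, with up to 1642 counts. How shared reads and strand were counted is not given in the sources used here, and C4b has a near-identical copy, C4a, so the levels of these genes are uncertain.

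**Figure D1:**
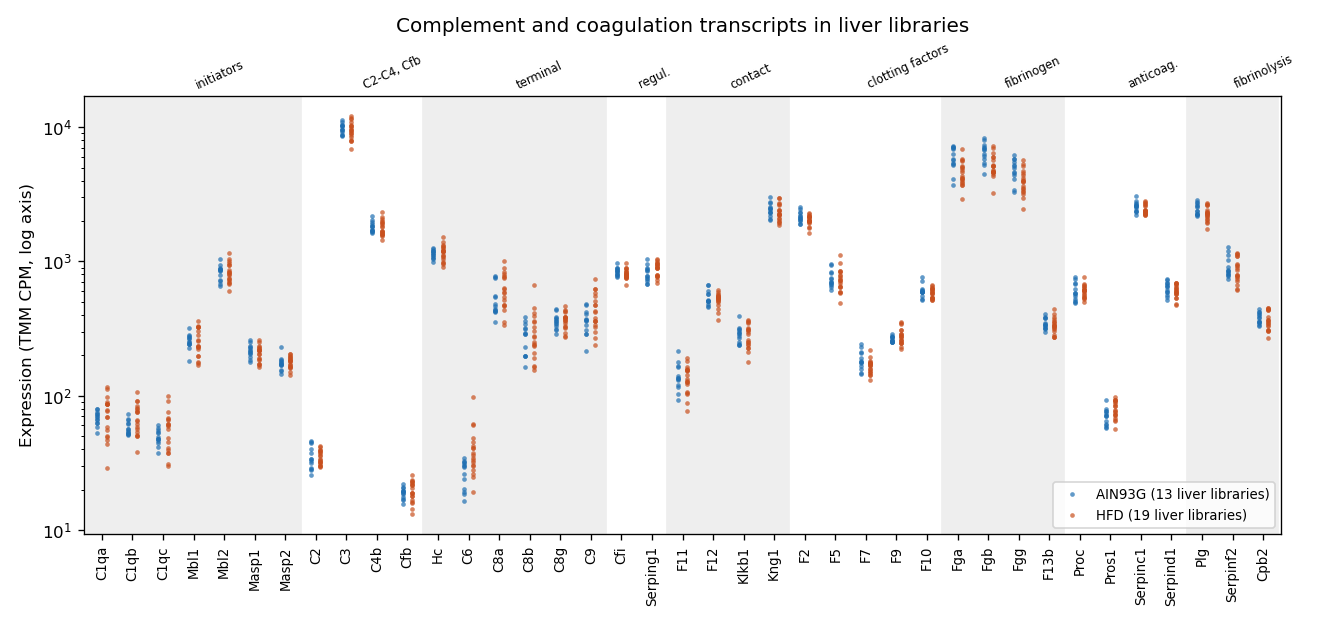
Expression of the 39 genes (x axis, grouped by role) in TMM-normalised CPM (y axis, log scale) in the 32 liver libraries. Each point is 1 library, blue for AIN93G (13) and orange for the HFD (19). C3 and the fibrinogen chains lie at the top, C2, Cfb and C6 at the bottom, and C6 has the widest spread.

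The classical and lectin initiators were expressed at very different levels. Over the 32 liver libraries, C1qa, C1qb and C1qc, the chains of the C1q recognition protein, had medians of 70.3, 61.8 and 51.0 CPM, with C1qa between 28.9 and 116 CPM. HFD ZT 8 replicate 3 was the lowest of the 32 for each of the chains. Mbl2 (598 to 1160 CPM) was above Mbl1 (168 to 358 CPM) in each library, and the lectin-pathway proteases Masp1 and Masp2 had medians of 215 and 177 CPM. The regulators Cfi, which degrades C3b and C4b, and Serping1, the C1 inhibitor, had medians of 812 and 873 CPM.

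The pore components varied most among livers. C6 ranged from 16.3 to 97.5 CPM (coefficient of variation 45.0%), C8b from 156 to 665 CPM (36.3%), C8a from 333 to 1011 CPM (30.3%) and C9 from 216 to 734 CPM (29.5%). HFD ZT 24 replicate 3 was the highest library for C6, C8a and C8b. Hc, which encodes C5, and C8g, the lipocalin-like chain of C8, were steadier, with coefficients of 11.3% and 13.5%. The steadiest of the 39 were Cfi (7.63%), Serpinc1, antithrombin (8.68%), and F2, prothrombin (9.13%).

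Among the coagulation genes, Serpinc1 and F2 varied least over livers. Serpinc1 had a median of 2419 CPM and a range of 2214 to 3090 CPM, and F2 had 2076 CPM and 1615 to 2526 CPM. Plg, the precursor of plasmin, had a median of 2293 CPM. The protease precursors F7, F9, F10 and F12 had medians of 173, 267, 594 and 527 CPM, and F5, the cofactor of factor X, 723 CPM. Proc, Serpind1 and Pros1, which restrain thrombin formation or thrombin, had medians of 600, 613 and 75.5 CPM. Serpinf2, the plasmin inhibitor, and Cpb2, which protects fibrin from plasmin, had medians of 858 and 364 CPM.
The fibrinogen chains moved together from library to library. The ratio of Fgb to Fgg was 1.11 to 1.53 and that of Fga to Fgg 0.958 to 1.31 over the 32 livers, whereas each chain on its own spanned a range of 2.46-fold (Fga) to 2.59-fold (Fgb). AIN93G ZT 4 replicate 1 was the highest and HFD ZT 16 replicate 1 the lowest library for each of the chains.

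Complement and coagulation transcripts made up a median of 15.5% of the counts of plasma-protein genes (these 39 with a written list of other secreted liver proteins) in liver libraries, with a range of 11.8% to 17.5%. The value was 9.56% when counts were divided by gene length, and 23.1% when albumin and the major urinary proteins were left out. Of all counts in a liver library, the 39 genes held 4.32% (median).
On the HFD the group means of the share from ZT 0 to ZT 20, in order, were 16.4% ± 0.741 (SD, n = 3), 16.2% ± 0.854, 15.1% ± 1.59, 13.2% ± 2.02, 13.7% ± 0.826 and 14.4% ± 0.927. On AIN93G those from ZT 0 to ZT 12 were 16.2% ± 0.325 (SD, n = 3), 16.7% ± 0.548, 15.6% ± 1.3 and 15.4% ± 1.88. The ranges of the diets overlapped at each of these time points. The share is a description, and no test was made of a score over the genes. In the 10 adipocyte-rich libraries it was 25.3% to 33.4%, while all plasma-protein genes together were 0.704% to 1.11% of counts there, against 24.7% to 30.8% in livers.

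**Figure D2:**
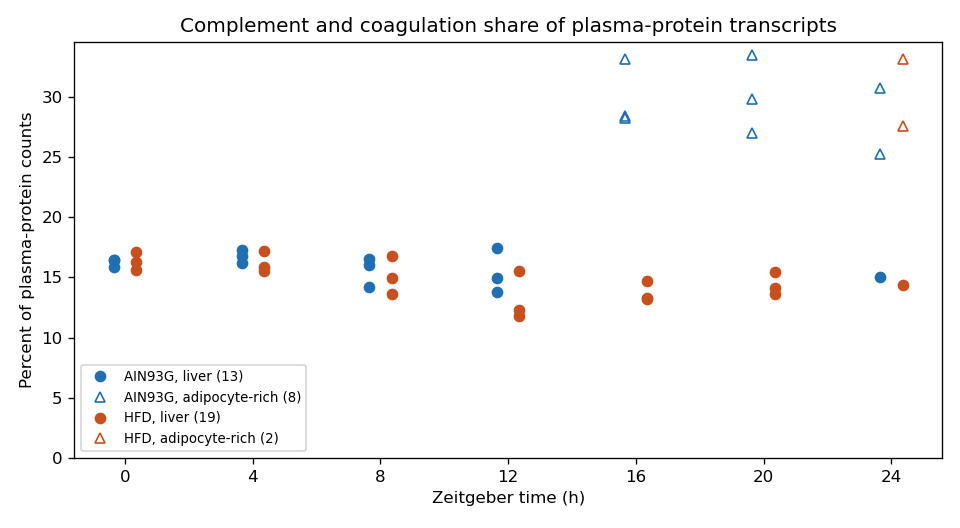
Counts of the 39 genes as a percent of the counts of plasma-protein genes (y axis) by Zeitgeber time in hours (x axis). Filled circles are liver libraries and open triangles adipocyte-rich libraries, with the number of each in the legend. Livers lie between 11.8% and 17.5%, with the lowest value on the HFD at ZT 12, and adipocyte-rich libraries lie at 25.3% or above.

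The first question of the design is what the HFD changed. With 12 liver libraries per diet over ZT 0, 4, 8 and 12, none of the 39 genes passed an adjusted p of 0.05 for the diet term in the quasi-likelihood test of edgeR, where 0.133% of all 12009 genes tested did. With DESeq2, Fga was called lower, and 6 of the 39 had an unadjusted p under 0.05 in edgeR, as did 7.90% of all genes. The median log2 fold change of the 39 was -0.00085 and that of all genes -0.0063, with 20 of the 39 lower and 19 higher on the HFD. For 37 of the 39, the 95% interval of the fold (from the fitted SE on 19 residual degrees of freedom) lay within 1.5-fold in either direction, and C6 and C9 were the exceptions.

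Fibrinogen had the clearest lean. Fga was 3732 to 7173 CPM (median 6050) on AIN93G and 3684 to 6838 CPM (median 4583) on the HFD over these 24 livers. The groups overlapped, but the HFD mean was the lower at each of the 4 time points. The log2 fold change was -0.35 (SE 0.098, interval -0.56 to -0.15) and an edgeR adjusted p = 0.194. Without AIN93G ZT 12 replicate 1, the lowest AIN93G library, the adjusted p of edgeR was 0.0279. Fits that left out 1 library called 2 to 125 of all genes for the diet term, against 16 with all 24 livers.
Fgb followed it, with medians of 6822 CPM on AIN93G and 5180 CPM on the HFD and a log2 fold change of -0.25 (SE 0.093, edgeR adjusted p = 0.441). Fgg had medians of 5061 and 4015 CPM and -0.25 (SE 0.10, edgeR adjusted p = 0.510). The 3 chains are not independent measurements of the diet, since they moved together in each liver.

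C6 was the member with the largest estimate in the other direction. It lay between 16.3 and 34.3 CPM (median 29.7) on AIN93G and between 25 and 61.7 CPM (median 35.3) on the HFD. The groups overlapped, with the HFD mean above the AIN93G mean at each of the 4 time points. The log2 fold change was 0.49 (SE 0.15, interval 0.19 to 0.80) and an edgeR adjusted p = 0.241. Pros1, encoding protein S, came next by p among the genes higher on the HFD. It had a median of 70.1 CPM on AIN93G and 77.2 CPM on the HFD (log2 fold change 0.17, SE 0.068, edgeR adjusted p = 0.495). F7, which starts clotting with tissue factor, had medians of 178 and 165 CPM (-0.15, SE 0.071, edgeR adjusted p = 0.608).
In all, 6 of the 39 had a lower HFD mean at each of the 4 time points (Fga, Fgb, Fgg, F7, Serpinc1 and Cpb2) and 4 a higher one (C1qb, C6, Klkb1 and Pros1), beside 7.63% and 8.70% of all genes. Of 22 other complement genes and 19 other coagulation genes tested, none was called in edgeR, and 3 and 1 had an unadjusted p under 0.05. Of 20 acute-phase genes, the class fibrinogen belongs to, none was called either. Their median log2 fold change was 0.092, with 12 of the 20 higher on the HFD, and of the 8 at an unadjusted p under 0.05, 7 were higher (Saa1, Saa2, Saa3, Saa4, Hp, Lrg1 and Steap4) and Orm1 was lower.

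**Figure D3:**
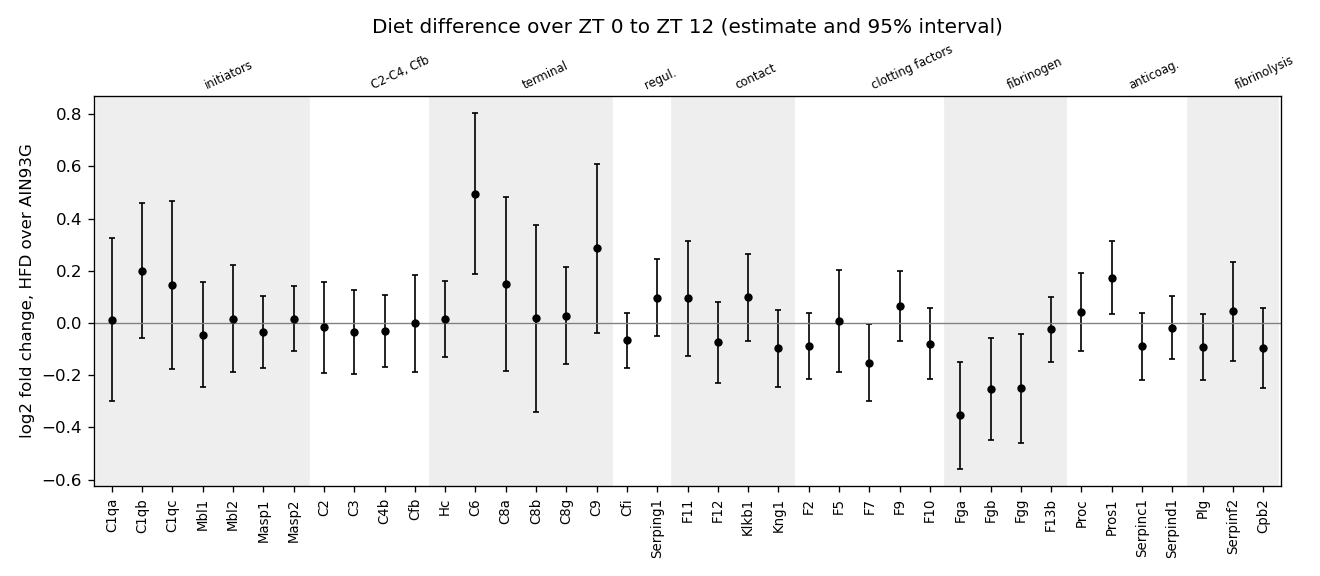
Fitted log2 fold change of the HFD over AIN93G at ZT 0 to ZT 12 (y axis) for the 39 genes (x axis, grouped by role), with 95% intervals as bars, from 12 libraries per diet. Most intervals are narrow and cross 0. The fibrinogen chains and F7 lie below 0, and C6 and Pros1 above it.

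At single time points of 3 against 3 livers, none of the 39 passed the threshold in edgeR at ZT 0, 4, 8 or 12. The share of all genes called was 0.0998% at ZT 0 and 0.0% at ZT 4, ZT 8 and ZT 12. An unadjusted p under 0.05 was found for 5, 1, 3 and 0 of the 39 genes in the order of these time points, beside 8.05%, 3.50%, 6.99% and 4.45% of all genes, and DESeq2 called C6 at ZT 0 and none of the 39 at the other times.
At ZT 0, C6 was 20.3, 30.7 and 32.4 CPM on AIN93G and 40.6, 45.0 and 60.1 CPM on the HFD. Each HFD liver was above each AIN93G liver, and the log2 fold change was 0.81 (SE 0.20, edgeR adjusted p = 0.371). C9, the pore-forming end of the cascade, was 216, 309 and 357 CPM on AIN93G and 357, 586 and 471 CPM on the HFD at ZT 0 (0.68, SE 0.22, edgeR adjusted p = 0.519).
C8a, which joins C8b and C8g in the pore, was 351, 549 and 484 CPM on AIN93G at ZT 0 and 476, 804 and 829 CPM on the HFD (0.61, SE 0.24, edgeR adjusted p = 0.594). The diets overlapped for C8a. Without the filter on low counts, which brings 25604 genes into the fit, C6, C9, C8a, C1qb and C1qc were called higher at ZT 0. That fit called 452 of all genes, against 12 with the filter.
Markers of macrophages and most acute-phase genes lay higher in the same HFD livers. All 12 macrophage and Kupffer cell markers had a positive log2 fold change at ZT 0, with 7 at an unadjusted p under 0.05 and none called in edgeR. Their summed level was 590 to 695 CPM (median 658) on AIN93G and 724 to 1328 CPM (median 768) on the HFD. The largest were those of Marco at 2.33 (SE 0.89), Adgre1 at 1.02 (SE 0.36) and Cd5l at 0.84 (SE 0.27). The median of the 12 was 0.43 and the smallest was 0.018 (Mrc1), beside 0.31 to 0.53 for the C1q chains. Of 19 acute-phase genes, 15 were positive and none was called. At an unadjusted p under 0.05 in edgeR, 5 were higher (Saa1, Saa4, Hp, Hpx and Lrg1) and 2 lower (Orm1 at -0.37 and Hamp at -1.04). Their summed level was 12822 to 13838 CPM against 14852 to 15954 CPM. The part of either list in the differences at ZT 0 was not tested.
At ZT 4, C6 was 16.3, 23.9 and 30.2 CPM on AIN93G and 30.1, 30.3 and 42.1 CPM on the HFD (0.54, SE 0.23, edgeR adjusted p = 1.00). Fga had a log2 fold change of -0.37 (SE 0.20) and Fgg of -0.35 (SE 0.22) there. At ZT 8, C8b was 383, 315 and 289 CPM on AIN93G and 190, 163 and 244 CPM on the HFD (-0.73, SE 0.20, edgeR adjusted p = 0.693). C8b had the lowest p of the 39 at ZT 8 with no overlap between diets, and at ZT 0 its group means were 248 and 282 CPM in the opposite order.
Fga at ZT 8 was 5821, 5396 and 5669 CPM on AIN93G and 3892, 4020 and 4164 CPM on the HFD, again with no overlap (-0.48, SE 0.16, edgeR adjusted p = 0.693). Fgb had -0.43 (SE 0.16). At ZT 12 the smallest p were those of Cfb (-0.38, SE 0.17), C3 (-0.36, SE 0.17) and Hc (-0.26, SE 0.13), each with an edgeR adjusted p of 0.902.

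Whether the diet difference varied with time was asked with the interaction term. None of the 39 was called, as was none of all 12009 genes (0.0%) in edgeR, and DESeq2 called none of the 39. The unadjusted p was under 0.05 for 2 of the 39 and 702 of all genes. C3 came first (edgeR adjusted p = 0.815). Its mean was 8852 CPM ± 238 (SD, n = 3) on AIN93G and 10779 ± 1211 on the HFD at ZT 0, and 9962 ± 434 and 7759 ± 749 CPM at ZT 12. The order of the diets was opposite at these ends, and the difference between them was not past the threshold. Cfb was next (edgeR adjusted p = 0.842), with group means of 19.0 and 22.8 CPM at ZT 0 and 20.3 and 15.6 CPM at ZT 12 on AIN93G and the HFD.

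The second question is how the transcripts varied with time of day. Across ZT 0, 4, 8 and 12 in both diets, edgeR called none of the 39 for time, against 6.71% of all genes. Of the 39, 11 had an unadjusted p under 0.05, as did 23.5% of all genes, and DESeq2 called Mbl1, Serpind1 and Serpinf2. Without ZT 12, Masp1 was called. These fits called 1474 (DESeq2) and 1297 (without ZT 12) of all genes, against 806. Among 22 other complement and 19 other coagulation genes, F3, tissue factor, was the 1 called (edgeR adjusted p = 0.0392).
Serpinf2, the main inhibitor of plasmin, came first (edgeR adjusted p = 0.0961). Its AIN93G means were 846, 1139, 963 and 772 CPM and its HFD means 987, 1115, 844 and 872 CPM at ZT 0, 4, 8 and 12. The ZT 4 mean was the highest on both diets. Without HFD ZT 12 replicate 3 or without AIN93G ZT 8 replicate 3, Serpinf2 passed the threshold. Pros1 (edgeR adjusted p = 0.109) and Masp1 (edgeR adjusted p = 0.116) followed, both with their highest means at ZT 8 on each diet: Pros1 had 75.1 and 91.3 CPM and Masp1 238 and 243 CPM on AIN93G and the HFD.

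On the HFD alone, livers cover ZT 0 to ZT 20, so a cosine of 24 h was fitted to 18 libraries. F11 and Klkb1 were the 2 of the 39 called in edgeR, a smaller share than the 8.57% called of all 12008 genes. Both belong to the contact system. F11 encodes factor XI, which activates factor IX, and Klkb1 encodes plasma prekallikrein, which activates factor XII and frees bradykinin from kininogen.
F11 was 126, 144 and 133 CPM at ZT 0, then 183, 162 and 156 CPM at ZT 4 and 157, 190 and 126 CPM at ZT 8. It was 155, 155 and 105 CPM at ZT 12, 76.8, 107 and 128 CPM in the ZT 16 livers and 103, 88.7 and 121 CPM in those of ZT 20. It was high from ZT 4 to ZT 8 and low at ZT 16 and ZT 20, where each library lay below each library of ZT 4. The fitted peak was at ZT 5.85 and the peak-to-trough fold 1.68 (edgeR adjusted p = 0.0151).
Klkb1 was 225, 290 and 308 CPM at ZT 0, then 236, 357 and 349 CPM at ZT 4 and 351, 300 and 369 CPM at ZT 8. It was 313, 252 and 309 CPM at ZT 12, 177, 210 and 242 CPM in the ZT 16 livers and 250, 228 and 259 CPM in those of ZT 20. Its lowest mean was at ZT 16, where each library lay below each library of ZT 8, with a fitted peak at ZT 6.17 and a peak-to-trough fold of 1.51 (edgeR adjusted p = 0.0301). Leaving out any 1 library kept the call of F11. Klkb1 fell past the threshold (edgeR adjusted p 0.0543 to 0.0590) in 6 of 18 such fits, those without HFD ZT 4 replicate 2, ZT 4 replicate 3, ZT 8 replicate 1, ZT 16 replicate 1, ZT 16 replicate 2 or ZT 20 replicate 2. With the 6 time points as a factor in place of the cosine, the edgeR adjusted p was 0.122 for F11 and 0.131 for Klkb1.
On AIN93G, which the cosine fit did not use, F11 means were 118, 142, 172 and 130 CPM and Klkb1 means 251, 293, 329 and 269 CPM at ZT 0, 4, 8 and 12. Both were highest at ZT 8 and lowest at ZT 0. The other members of the contact system had shallower curves on the HFD: F12, the factor that starts it, had a peak-to-trough fold of 1.08 and Kng1 of 1.21.

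The other genes of clotting and complement had fitted peak-to-trough folds of 1.02 (F9) to 1.5 (C8a) on the HFD. Serpinf2, next to F11 and Klkb1 in order of p, had 1.49 with a peak at ZT 3.54 (edgeR adjusted p = 0.0731). Fga had 1.44, with a peak at ZT 0.628 and group means of 5651 CPM at ZT 0 and 3683 CPM at ZT 16, and C3 had 1.33. DESeq2 and scaling by library size each added C3, Fga and Serpinf2 to the call, a fit without ZT 12 added Mbl1, Fga and Serpinf2, and a fit without HFD ZT 12 replicate 3 raised the count to 7. Of all genes these fits called 1693 (DESeq2), 1048 (library size), 1007 (without ZT 12) and 1694 (without that replicate), against 1029. Over the 39, 8 had an unadjusted p under 0.05, a smaller share than the 26.4% of all genes. None of 23 other complement and 18 other coagulation genes was called by edgeR in this fit, with 2 and 2 at an unadjusted p under 0.05.

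**Figure D4:**
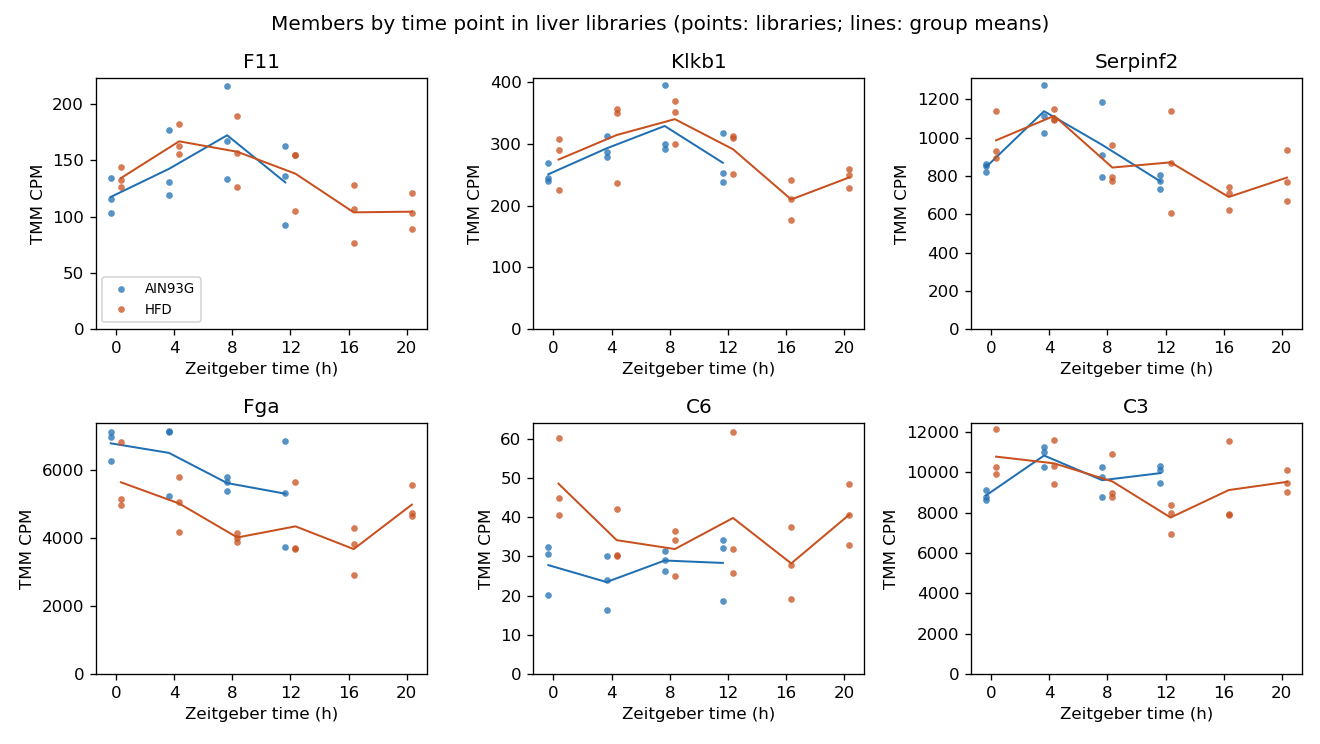
Expression in TMM-normalised CPM (y axes, from 0) by Zeitgeber time in hours (x axes) for 6 members in liver libraries of ZT 0 to ZT 20. Points are libraries, lines join group means, blue is AIN93G (liver libraries to ZT 12) and orange the HFD. F11 and Klkb1 are highest at ZT 4 to ZT 8 and low at ZT 16, and Fga is lower on the HFD at each shared time.

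At ZT 16 and ZT 20 the diets could not be compared in liver, because the 6 AIN93G libraries were adipocyte-rich and the 6 HFD libraries were liver. At these times diet and tissue content cannot be told apart. In bulk RNA, fewer cells of a type and less RNA per cell cannot be told apart either. In edgeR, 36 of the 39 were called higher on the HFD at ZT 16, where 55.3% of all 14082 genes were called (26.3% higher, 28.9% lower), and 36 at ZT 20, where 59.1% of 13697 were called (27.2% higher, 31.9% lower). Most of them passed the filter on low counts through the HFD livers alone, since 23 of the 39 averaged under 25 counts in the AIN93G libraries at ZT 16 and 22 at ZT 20, so nothing is read from these counts. Of the 14 genes with 25 counts in each library, 11 were called higher at both times, where 49.9% of all genes so filtered were called at ZT 16 and 54.5% at ZT 20.
Serpind1, heparin cofactor II, was 0.292, 0.204 and 0.185 CPM on AIN93G and 473, 611 and 478 CPM on the HFD at ZT 16. At ZT 20 it was 0.820, 0.446 and 0.652 CPM on AIN93G and 680, 587 and 572 CPM on the HFD.
F12 was 0.0730, 0 and 0.0369 CPM on AIN93G and 530, 610 and 544 CPM on the HFD at ZT 16, and 0, 0.0406 and 0.0435 CPM against 415, 498 and 557 CPM at ZT 20. F13b was 0, 0 and 0.0369 CPM against 272, 374 and 273 CPM at ZT 16, and 0.0713, 0.0406 and 0.0435 CPM against 362, 305 and 355 CPM at ZT 20. Kng1 was 0.0730, 0.0817 and 0.185 CPM against 2005, 2944 and 2394 CPM at ZT 16. These AIN93G values rest on a few counts, and no fitted fold is given for them.
Mbl1 and Cpb2 were at most 0.0408 CPM on AIN93G there and at least 197 and 301 CPM on the HFD. At ZT 20, C8b was 0, 0 and 0.0435 CPM against 235, 277 and 362 CPM, and Serpinf2 was 0.0713, 0.0812 and 0 CPM against 672, 766 and 938 CPM. C8g kept a measurable level, with 2.60, 2.23 and 2.96 CPM on AIN93G and 362, 328 and 382 CPM on the HFD at ZT 20 (7.10, SE 0.20, edgeR adjusted p = 7.71e-08).
The C1q chains were the exception. C1qa at ZT 16 was 74.0, 193 and 120 CPM on AIN93G and 69.3, 86.7 and 47.1 CPM on the HFD, and none of the chains was called in edgeR at either time. With scaling by library size alone, which moved the median of all genes to -0.91 at ZT 16 and -0.71 at ZT 20, the 3 chains were called lower on the HFD at both times. C1qa alone of the 39 was also called lower at ZT 16 with DESeq2, without the filter on low counts and in a single fit of the 42 libraries, and at ZT 20 without the filter.

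Which components the adipocyte-rich libraries kept was measured within AIN93G, by setting the 6 libraries of ZT 16 and ZT 20 against the 12 livers of ZT 0 to ZT 12. These groups differ in time of day and in tissue content, which cannot be told apart. In edgeR, 36 of the 39 were called lower and 3 higher, where 74.9% of all 13587 genes were called (36.4% lower, 38.5% higher). Here too 22 of the 39 averaged under 25 counts in the 6 libraries and passed the filter through the livers. All 14 genes with 25 counts in each library were called, 11 lower and 3 higher, as were 71.5% of all genes so filtered.
The level kept, as a percent of the liver mean, fell into ranges with a gap between 0.799% and 8.01%. It was under 0.1% for 18 genes, 0.117% for the median gene, up to 0.799% for another 11, 8.01% to 64.5% for 7 genes and over 100% for the 3 C1q chains. Leaving out each of the 6 libraries in turn left all 29 genes under 1% and the C1q chains over 100%, but 8 values of the 29 moved by over 1.5-fold (C8a, C8b, F5, F9, Fgb, Fgg, Serpinf2 and Cpb2). Albumin kept 0.0336% (95% interval of the counts 0.0328% to 0.0346%), and 10 of the 14 other hepatocyte markers kept less than 0.1%. Albumin had chosen the liver libraries, so its level describes them. Intervals of this kind are exact Poisson intervals and cover counting error only.

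All 4 genes of the middle of the complement cascade kept between 8.01% and 46.3%. C3 was 8651 to 11231 CPM in the 12 livers and 612, 570, 837, 905, 615 and 1177 CPM in the 6 adipocyte-rich libraries, or 8.01% of the liver mean. C4b, the classical-pathway partner of C3, was 1617 to 2189 CPM in livers and 286, 756, 540, 728, 654 and 576 CPM, or 32.3%. C2, which C4b binds to form the C3 convertase, was 25.6 to 45.9 CPM in livers and 11.1, 25.1, 15.3, 17.1, 12.6 and 14.3 CPM, or 46.3%.
Each of the 6 libraries lay below each of the 12 livers for C3, C4b and C2, a pattern that 22.5% of all genes had. Cfb, which takes the place of C2 in the alternative pathway, kept 14.8% at 2.01 to 3.76 CPM, and Serping1, the inhibitor of C1r and C1s, kept 16.3% at 89.6 to 186 CPM. C6 alone of the pore genes stayed high, at 27.8% (3.88 to 15.9 CPM), while C8g kept 0.739%, Hc 0.286%, C8a 0.0191%, C9 0.0256% and C8b 0.00495%. C8a was 0.00909% without ZT 16 replicate 3. C8b rested on 2 counts in all 6 libraries, with a counting interval of 0.000578% to 0.0172%, and was 0.00273% without ZT 20 replicate 3.
The regulator Cfi kept 0.0350%, and the genes of the lectin pathway kept under 1%, with Masp1 at 0.799%, Masp2 at 0.346%, Mbl1 at 0.0133% and Mbl2 at 0.00627%. Reads of Masp2 may be shared with Tardbp, whose part in the value was not tested.

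Among clotting genes, Pros1 alone was kept above 1%. It was 57.5 to 80.1 CPM in the 12 livers and 26.8, 57.9, 29.6, 60.0, 45.9 and 45.5 CPM in the adipocyte-rich libraries, or 64.5%. The groups overlapped, and the call was lost when libraries were scaled by library size alone. Of the other anticoagulants, Proc kept 0.204%, Serpind1 0.0685% and Serpinc1 0.0293%. Serpinc1 was 2231 to 3090 CPM in livers and 0.365 to 1.07 CPM in the 6 libraries.
Among the vitamin K-dependent factors and their cofactor, the kept level was 0.0178% (F2) to 0.164% (F7). The contact system kept 0.00600% (F12) to 0.117% (Klkb1), and Plg, Serpinf2 and Cpb2, the genes of clot removal and its inhibition, kept 0.00956% to 0.0224%. Cpb2, the highest of these, was 0.00844% without ZT 20 replicate 3, and Serpinf2 was 0.0140% and 0.00901% without ZT 16 replicate 1. F5 kept 0.142%, or 0.0942% without ZT 20 replicate 1, and F9 0.0460%, or 0.0245% without ZT 16 replicate 1.
The ratios of the fibrinogen chains, given above for livers, were different in these libraries. Fgg was 2.15, 17.4, 12.2, 1.85, 45.5 and 5.83 CPM (0.284% of liver), Fgb 3.07, 4.08, 11, 4.78, 22.5 and 5.09 CPM (0.127%) and Fga 0.109, 0.327, 0.702, 0.178, 0 and 1.04 CPM (0.00649%). Without ZT 20 replicate 2, Fgg was 0.158% and Fgb 0.0847% of the liver mean. Over all 10 adipocyte-rich libraries the ratio of Fga to Fgg was 0 to 0.179, below the lowest liver value of 0.958. Fgg shares 5.49% of its exonic bases with Gm30097 on the opposite strand, whose highest count in any library was 10.

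**Figure D5:**
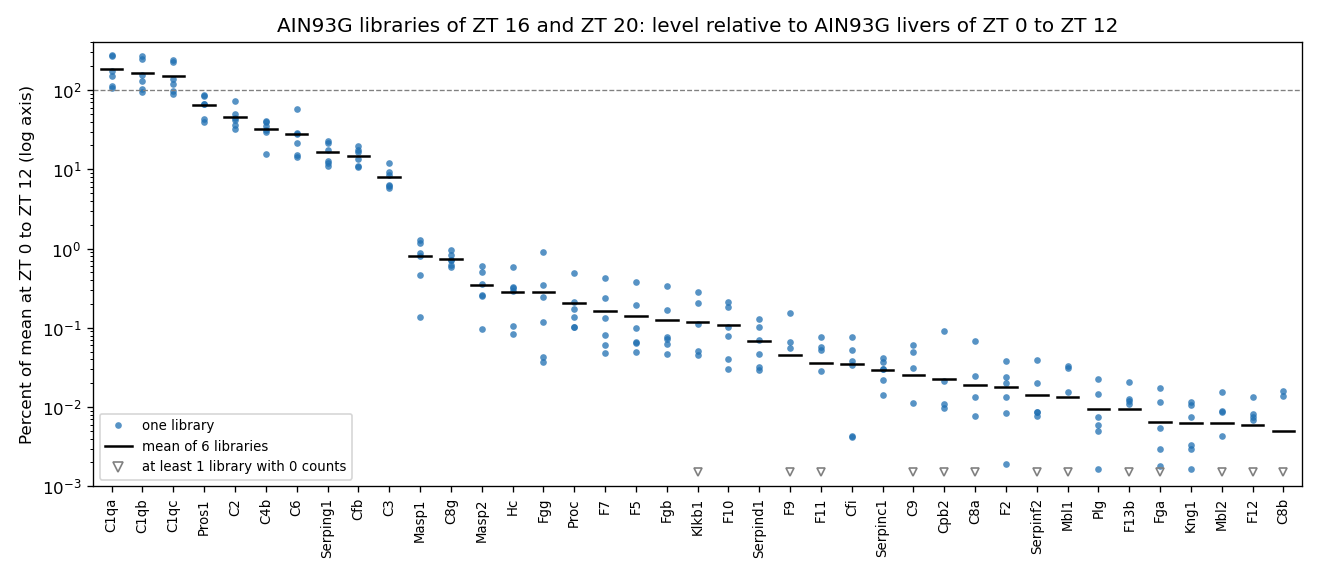
Level of each of the 39 genes in the 6 AIN93G libraries of ZT 16 and ZT 20 as a percent of the mean of 12 AIN93G livers of ZT 0 to ZT 12 (y axis, log scale), ordered by the mean. Points are libraries, black lines the mean of 6, open triangles mark genes with 0 counts in at least 1 library, and the dashed line is 100%. By their means, the 3 C1q chains lie above 100%, 7 genes between 8.01% and 64.5%, and the other 29 at 0.799% or less.

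The C1q chains were higher in the 6 AIN93G libraries of ZT 16 and ZT 20. C1qa was 52.9 to 79.5 CPM in the 12 livers and 74.0, 193, 120, 187, 105 and 78.5 CPM in the 6 libraries, C1qb kept 166% and C1qc 153% of the liver mean. The groups overlapped for each chain, the call was higher in edgeR with each of the scalings tried, and C1qc lost it without AIN93G ZT 16 replicate 2 or AIN93G ZT 20 replicate 1. This did not hold for each adipocyte-rich library. AIN93G ZT 24 replicate 1 had C1qa at 37.9, C1qb at 31.8 and C1qc at 25.5 CPM, below each of the 12 livers, whose lowest values were 52.9, 50.9 and 37.5 CPM. Over all 10 adipocyte-rich libraries, C1qa ranged from 37.9 to 193 CPM.
Macrophage markers moved beside them in different directions. Of 12 markers, 3 were higher in each liver than in any adipocyte-rich library and 1 was lower, and their sum was 445 to 1328 CPM in livers and 299 to 813 CPM in adipocyte-rich libraries. The Kupffer cell marker Clec4f was 132 to 280 CPM in livers and at most 0.168 CPM in the 10, while Csf1r, shared by macrophages, was 37.7 to 121 and 39.7 to 128 CPM. Of 12 endothelial and stellate markers, 5 were higher in each liver and 5 in each adipocyte-rich library, with sums of 440 to 695 and 2153 to 5438 CPM. The sum of 8 lymphocyte markers was 2.41 to 8.80 CPM in livers and 2.72 to 472 CPM in the adipocyte-rich libraries, and that of 8 mammary epithelium markers 224 to 405 and 46.7 to 655 CPM. The part of these cells in the levels of C1q, C3, C4b, Serping1 and Pros1 was not tested.

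Other genes of both cascades were called in both directions, as were those of the whole table, where 38.5% were higher and 36.4% lower. Of 27 other complement genes tested, 9 were called higher and 13 lower in the 6 libraries against the 12 livers. For 24 other coagulation genes the counts were 11 higher and 13 lower. Cfd, adipsin, the factor D protease that activates factor B and an adipocyte marker, was 0 to 19.2 CPM in the 12 livers and 1868 to 3580 CPM in the 6 libraries. C5ar1, the receptor of C5a, was 0.198 to 1.15 CPM and 4.01 to 12.8 CPM. Itgb2, a chain of the complement receptors of leukocytes, rose by a log2 difference of 1.90, from 6.32 to 12.4 CPM in livers to 13.7 to 60.1 CPM.
F13a1, the enzyme chain of factor XIII, was 0 to 1.30 CPM in livers and 61.4 to 216 CPM in the 6 libraries, although its liver-made carrier F13b was at most 0.0713 CPM there. Thbd, thrombomodulin, which turns thrombin towards protein C, was 2.35 to 8.74 CPM in livers and 36.5 to 126 CPM in the 6 libraries. Plau, urokinase, was 0.772 to 2.90 CPM in livers and 19.9 to 40.9 CPM.
In the other direction, C4bp, Cfhr2, Pzp, Proz and Hrg, all secreted by liver, were the genes named by the smallest p. Pzp was 4730 to 8192 CPM in the 12 livers and 0.406 to 1.39 CPM in the 6 libraries, and Proz was 422 to 606 and 0.568 to 1.93 CPM. C4bp, Cfhr2 and Hrg were at least 519 CPM in each of the livers and had at most 5 counts in any of the 6 libraries, so no fitted fold is given.

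The composition of the set was therefore different. The 10 genes that kept 8% or more held 22.9% to 31.4% of the 39 genes' counts in livers and 92.9% to 99.1% in the 10 adipocyte-rich libraries. C3 alone took 27.2% to 59.6% there and C4b 16.7% to 36.2%, against 3.78% (median) for C4b in livers. Fga, Fgb and Fgg, with medians of 10.5%, 11.5% and 9.08% of the counts in livers, had medians of 0.0197%, 0.336% and 0.635%. These 10 genes were picked after their values were seen.

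At ZT 24 each diet held 2 adipocyte-rich libraries and 1 liver, and edgeR called none of the 39 and 0.0% of all 14142 genes. DESeq2 gave an adjusted p for 7 of the 39 and called none of these. In edgeR, 2 of the 39 and 67 of all genes had an unadjusted p under 0.05. The smallest p were those of the C1q chains, whose level differed least between the kinds of library. C1qa was 37.9, 69.8 and 63.1 CPM on AIN93G and 150, 78.4 and 116 CPM on the HFD (log2 fold change 1.0, SE 0.39, edgeR adjusted p = 1.00). C3 was 924, 867 and 9481 CPM on AIN93G and 631, 778 and 9511 CPM on the HFD, with the liver library as the third of each diet. The remaining hepatocyte factors followed the same split, so the spread within a diet at ZT 24 was that between the kinds of library.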

How the data were processed

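RNA labelled liver from 42 mice was sequenced as poly(A) libraries by a company. The authors deposited read counts per gene (whole numbers, not normalised). The submitters' processing notes name fastp, STAR, HTSeq 0.6.1, DESeq and STAR-Fusion and the build mm10, without their settings. Gene lengths of 37 of the 39 genes equal those of GENCODE M21. Depth was 14592481 to 21368409 counts, and intervals of counts (95%, exact Poisson) cover counting error only.

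Counts were scaled to reads per 1e6 counts (CPM) with TMM factors over 42 libraries. The quasi-likelihood F-test of edgeR 4.0.16 (R 4.3.3) was used on genes averaging 25 counts or more over the fitted libraries, with Benjamini-Hochberg adjustment over all genes and a threshold of 0.05. SE is the log2 fold change divided by the square root of F. All adjusted p-values are from edgeR unless DESeq2 (1.42.0) is named. The tests were tested on simulated data with 200 changed genes. A liver library has Alb over 10000 CPM. The nearest replicate pair differed by a chi-square of 14.5 per degree of freedom, so no library was a copy of another of its diet and time point. Libraries of different groups were not compared in this way. Replicate numbers follow the order of the samples and pair nothing. The titles start with a number that 18 of the 42 libraries share with another library of the same diet, never across diets. What the number marks is not given in the sources used here, and p-values measure the spread between these libraries. A fit of limma-voom (3.58.1) with this number as a random block was added after the data were seen.

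Named were, in each comparison, up to 6 called genes of the 39 with the smallest p, or up to 3 where none was called, up to 3 genes per direction of the other pathway lists, and Alb and Adipoq. A gene that this rule names is not reported here. Clec4f, Csf1r and other genes outside this rule were chosen after their values were seen. The 39 genes and the lists were chosen with earlier results of these data known. Alternatives were DESeq2, other scalings, other filters, a single fit of 42 libraries, leaving out ZT 12, time as a factor, single night times, and leaving out each library. Promoter sequences are from RefSeq (GRCm38.p6), where 29 of the 39 had an entry.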

Additional observations from a re-analysis of the deposited data

Results flagged for a closer look

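In the 6 AIN93G libraries of ZT 16 and ZT 20, 1 library lay far from the other 5 for 5 of 33 members tested, by Dixon's test at a critical value of 0.625. Chance flags about 1 in 20 groups. C6 was 15.9 CPM in ZT 20 replicate 1. C8a was 0.369 CPM in ZT 16 replicate 3, and Cpb2 was 0.348 CPM in ZT 20 replicate 3, both a few counts. Fgg was 45.5 CPM and Proc 2.92 CPM in ZT 20 replicate 2. No cause of these values was tested.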

How the results depend on the processing

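No paired analysis was possible because the replicate numbers follow sample order, and no number in a title occurs in both diets. Some libraries of a diet share a title number, whose meaning the labels do not give. With that number as a random block in limma-voom, chosen after seeing the data, 0 of the 39 genes were called for the diet term, the interaction and time, and F11 and Klkb1 in the cosine fit, as without the block. Within AIN93G it called 39 both ways. Of the values of single named genes under the alternatives, 759 kept their side of the threshold, and their direction where a fit gave one. A further 10 passed it, 8 fell below it and 0 turned. The interaction, time and cosine fits give no direction, so their values could not turn. The values at ZT 16, at ZT 20 and within AIN93G set liver against adipocyte-rich libraries. DESeq2 called 1 of the 39 genes for the diet term (Fga) and 1 at ZT 0 (C6), 3 for time over ZT 0 to ZT 12 and 5 in the cosine fit. Without a filter on low counts, 5 were called at ZT 0. When each library of a fit had to hold 25 counts, 14 of the 39 could be tested in the fits that include adipocyte-rich libraries, because fewer genes had such counts, and 11 were called at ZT 16, 11 at ZT 20 and 14 within AIN93G. Over all genes, edgeR called 16 for the diet term against 80 with DESeq2, 27 by library size, 87 without the filter and 76 without ZT 12. It called 12 at ZT 0 against 106 with DESeq2, 452 without the filter and 0 in a single fit of 42 libraries, 806 for time against 1474, 1320 without the filter and 1297 without ZT 12, and 1029 for the cosine against 1693 and 320 with time as a factor. Where edgeR called 0 of all genes, DESeq2 called 28 (ZT 4), 59 (ZT 8), 5 (ZT 12), 3 (ZT 24) and 8 (interaction), and edgeR without the filter 179 (ZT 4), 273 (ZT 8) and 91 (interaction). Without ZT 12, 1 was called for time and 5 in the cosine fit. Scaling by library size gave 5 in the cosine fit, and time as a factor gave 0. The share of plasma-protein counts had a median of 9.56% per length, 23.1% without Alb and the Mup genes and 4.32% of all counts. Leaving out 1 library gave 0 to 1 called for the diet term, 0 to 2 for time, 1 to 7 for the cosine, 35 to 38 at ZT 16, 36 to 37 at ZT 20, 38 to 39 within AIN93G and 0 at ZT 0, ZT 4, ZT 8, ZT 12 and ZT 24 and for the interaction. Of all genes, the same fits called 2 to 125 for the diet term, 515 to 1069 for time and 645 to 1694 for the cosine. They called 6515 to 7601 at ZT 16, 7149 to 7930 at ZT 20 and 9744 to 10197 within AIN93G. At ZT 0 they called 1 to 31, and for the interaction 0 to 3. The leave-out values of the level kept were chosen after seeing the data. The cause of these shifts was not tested, apart from the fewer genes of the strict filter.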
